A study of Mus musculus with 16 samples.

Results

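Elastic fibre and microfibril genes were examined in healing skin wounds of mice with and without mechanical load. The 10 genes were Eln, Fbn2, Fbln1, Fbln2, Fbln5, Efemp1, Efemp2, Mfap2, Mfap4 and Mfap5. They were chosen by family membership, with earlier results of these data known. Every probe set whose single gene symbol was one of these names was used. The 10 genes had 17 of the 34945 probe sets with a single symbol, belonging to 9 of 18193 genes, and the signal of Efemp2 is not analysed here. RNA was taken from dorsal incisional wounds of wild-type C57BL/6 mice, all labelled female, and hybridised to 16 Affymetrix arrays. Unstressed wounds were taken on day 6 or day 14 after injury. Stressed wounds came from a mouse model of hypertrophic scarring in which the healing incision is put under mechanical load, and the load had lasted 48 hours in those of day 6 and 10 days in those of day 14. There were 4 arrays in each of the 4 groups, from 4 mice per group and day according to the design text. No age is given in the sources used here. Values are log2 signals that the authors centred for each probe set, so 0 is no absolute level, levels of different genes cannot be ranked, and the presence of a cell type in the tissue cannot be judged from them.

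Elastic fibres give skin its recoil. They consist of a core of crosslinked elastin laid down on a scaffold of microfibrils, whose backbone is made of fibrillins. Small microfibril-associated glycoproteins sit on that scaffold, fibulins link tropoelastin to it, and lysyl oxidases crosslink the core. Elastic fibres form mainly during development, and scar tissue is known for having few of them.

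Upstream sequence is shown for Mfap2, Fbln2 and Fbln5, which were all higher in stressed wounds of day 14, with Efemp1, which did not pass there, beside them. It was taken from RefSeq (GRCm38.p6). Each line shows the 250 bases before an annotated transcription start, 5′ to 3′ on the gene's strand. Capitals mark motif matches on either strand, none of which overlap. The motif of the AP-1 transcription factors was searched as TGANTCA. For the TEAD factors, which act in the response of cells to tension, the letters were GGAATG. For the SMAD factors of TGF-beta signalling they were CAGACA. The TATA box was searched as TATAAA. Mfap2 and Fbln5 have 2 annotated starts each.
Mfap2, first start, chr4:141010431-141010680, plus strand: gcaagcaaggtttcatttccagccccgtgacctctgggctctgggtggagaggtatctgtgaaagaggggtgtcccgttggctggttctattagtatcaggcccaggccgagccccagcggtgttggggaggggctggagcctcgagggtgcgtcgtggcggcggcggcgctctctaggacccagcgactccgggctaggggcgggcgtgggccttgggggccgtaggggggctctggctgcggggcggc
Mfap2, second start, chr4:141010174-141010423, plus strand: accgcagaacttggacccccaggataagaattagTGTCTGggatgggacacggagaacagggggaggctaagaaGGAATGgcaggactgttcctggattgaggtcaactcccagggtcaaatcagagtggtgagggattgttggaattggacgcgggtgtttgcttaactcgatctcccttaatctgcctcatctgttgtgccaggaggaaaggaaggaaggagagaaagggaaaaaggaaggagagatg
Fbln2, chr6:91212514-91212763, plus strand: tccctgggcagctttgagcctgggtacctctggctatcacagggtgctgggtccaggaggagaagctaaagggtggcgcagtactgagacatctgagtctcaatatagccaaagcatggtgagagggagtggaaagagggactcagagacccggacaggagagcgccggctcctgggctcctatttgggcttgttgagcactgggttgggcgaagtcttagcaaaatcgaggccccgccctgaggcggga
Fbln5, first start, chr12:101819120-101819369, minus strand: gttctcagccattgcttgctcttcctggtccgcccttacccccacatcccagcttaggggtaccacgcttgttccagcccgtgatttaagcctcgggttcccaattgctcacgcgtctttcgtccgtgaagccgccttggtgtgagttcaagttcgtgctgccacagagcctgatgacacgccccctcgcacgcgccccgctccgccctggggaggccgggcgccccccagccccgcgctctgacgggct
Fbln5, second start, chr12:101818485-101818734, minus strand: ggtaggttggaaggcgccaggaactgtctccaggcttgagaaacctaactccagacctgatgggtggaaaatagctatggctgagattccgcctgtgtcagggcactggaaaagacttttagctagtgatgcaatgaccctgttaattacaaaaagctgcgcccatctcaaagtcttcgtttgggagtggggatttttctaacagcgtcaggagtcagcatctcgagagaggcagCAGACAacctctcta
Efemp1, chr11:28852955-28853204, plus strand: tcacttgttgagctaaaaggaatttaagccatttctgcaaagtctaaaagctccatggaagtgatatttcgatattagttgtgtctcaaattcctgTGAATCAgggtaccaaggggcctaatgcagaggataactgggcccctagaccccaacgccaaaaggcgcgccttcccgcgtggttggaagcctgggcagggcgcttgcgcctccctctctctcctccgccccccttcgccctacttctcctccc
In the 11 upstream windows read, of 6 members, TGANTCA occurred in 1 window (Efemp1), GGAATG in 1 (the second start of Mfap2), CAGACA in 4 (1 start each of Mfap2 and Fbln5 and both overlapping windows of Fbln1) and TATAAA in 0. The 11 windows included those of Efemp2, which held none of these letters. No window was read for Eln, Fbn2, Mfap4 or Mfap5. Over all 32851 windows of that length the shares were 6.75%, 12.6%, 17.1% and 12.4%. The windows of Fbln2 and of the first starts of Mfap2 and Fbln5, genes that were higher in stressed wounds, held none of these letters. GC content was 58.8% for Fbln2, 68.8% and 51.2% for the first and second starts of Mfap2, 65.2% and 49.6% for those of Fbln5, and 53.6% for Efemp1.

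At day 14 the arrays fell into classes that crossed the loading groups. Replicates 3 and 4 of both day 14 groups had Xist, an RNA made from the inactivated X in female cells, at 5.98 to 6.30, and the mean of 3 Y-linked genes at -3.97 to -3.53. The 12 remaining arrays comprised both day 6 groups and day 14 replicates 1 and 2. Their Xist signal was -0.53 to 0.81 and their Y-linked mean -0.99 to 0.74, which goes against the label female. Results at day 14 are therefore also given within each class, of 2 arrays per group. The arrays of day 14 also varied more widely, with interquartile ranges over all probe sets of 0.502 to 0.806 against 0.245 to 0.413 at day 6.

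Loading for 10 days was accompanied by higher signals of most of the scaffold genes. At day 14, 10 of the 17 probe sets, of 7 of the 9 genes, were higher in stressed than in unstressed wounds in limma (adjusted p below 0.05), and 0 were lower. Over all probe sets 7.35% were called, 3.31% higher and 4.04% lower. The 7 genes were Mfap4, Fbn2, Fbln2, Fbln5, Mfap2, Mfap5 and Eln, with differences from 0.89 to 3.25 on the log2 scale, whereas no probe set of Fbln1 or Efemp1 passed. The median difference of the 17 probe sets was 1.34, against 0.01 for all probe sets. In 9 of the 17 every stressed array lay above every unstressed array, as it did for 5.55% of all probe sets, and in 0 every stressed array lay below, against 4.52%. The limma fit estimated the spread jointly over both days, although the arrays of day 14 varied more widely. With only the 8 arrays of day 14, 1 of the 17 probe sets passed, and 122 of all 34945 did. In bulk tissue, more cells that express a gene and more RNA per cell cannot be told apart.

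**Figure D1:**
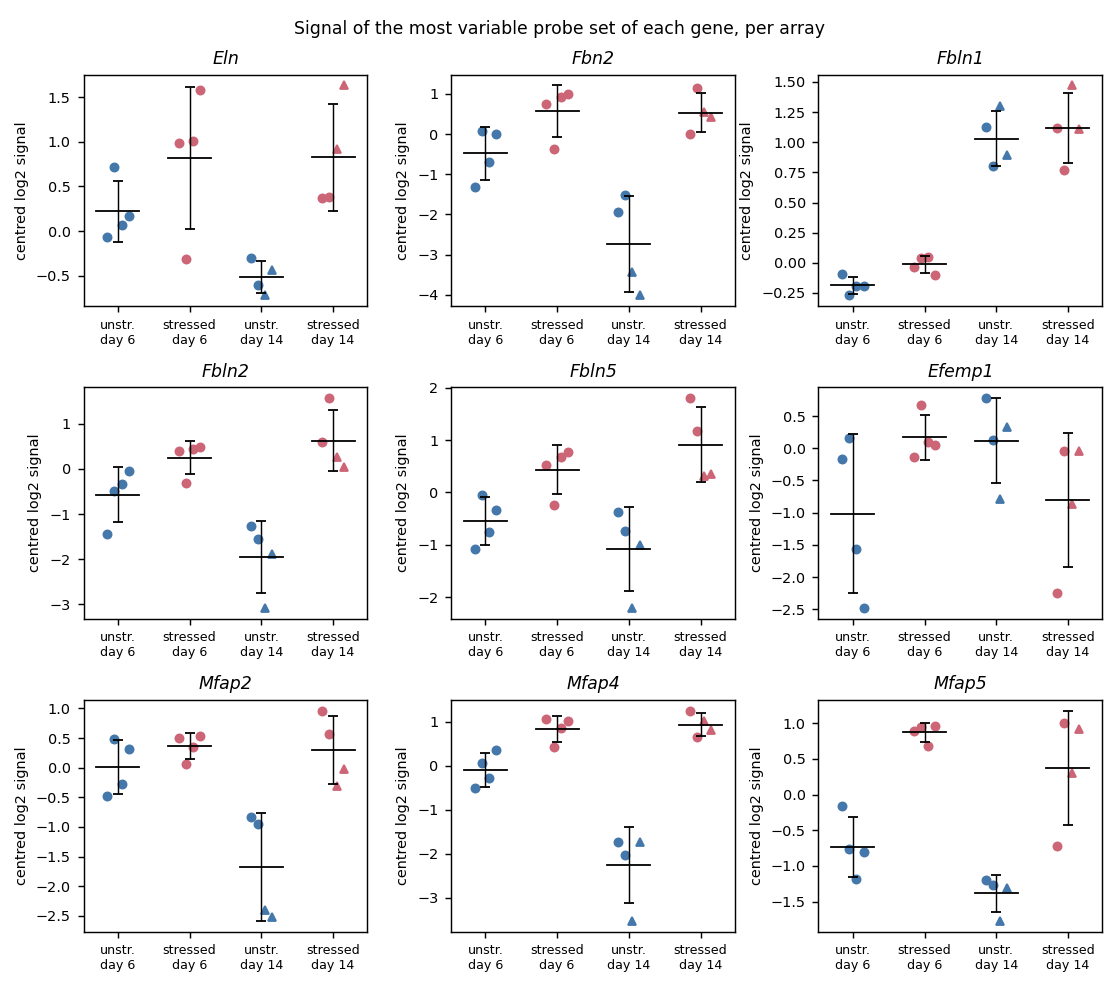
Centred log2 signal (vertical axis) of the most variable probe set of each of the 9 genes, in the 4 groups. Circles are arrays with low Xist and triangles arrays with high Xist, and bars show the mean and SD of 4 arrays. For Mfap4 the unstressed day 14 arrays lie at -3.53 to -1.73 and the stressed ones at 0.64 to 1.24.

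Mfap4, a fibrinogen-related glycoprotein that binds elastin and fibrillin, had the smallest p-value of the members. Its signal in the unstressed wounds of day 14 was -1.73, -2.02, -3.53 and -1.73 in replicates 1 to 4. In the stressed wounds of that day it was 1.24, 0.64, 1.02 and 0.80. The groups lay well apart, and unstressed replicate 3 was far below the other 3 arrays of its group. The difference was 3.18 (SE 0.33, 95% interval 2.48 to 3.87, adjusted p = 0.00012 in limma), or 9.05-fold. It was 2.82 in the arrays with low Xist and 3.54 in those with high Xist. Mfap4 was the only member that passed in a fit restricted to the 8 arrays of day 14 (adjusted p = 0.02).

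Fbn2 encodes fibrillin 2, a microfibril backbone protein most abundant in developing tissue. Its more variable probe set, 1454830_at, measured -1.93, -1.52, -3.44 and -4.01 in the unstressed wounds of day 14. The stressed wounds measured -0.01, 1.15, 0.55 and 0.41. The groups did not overlap, and within the unstressed group the arrays with high Xist were the lower ones. The difference was 3.25 (SE 0.50, 95% interval 2.19 to 4.31, adjusted p = 0.0022 in limma). The other probe set, 1422831_at, differed by 2.75 (SE 0.39, adjusted p = 0.0013), also without overlap. The Fbn2 differences were 2.29 and 1.97 in the arrays with low Xist and 4.21 and 3.53 in those with high Xist. The adjusted p of both was 0.055 with only the 8 arrays of day 14 and 0.012 when the Xist class was added to that fit as a block, an alternative chosen after seeing the data.

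Mfap2 and Mfap5 encode the related microfibril-associated glycoproteins MAGP-1 and MAGP-2, which bind fibrillin. For Mfap2, probe set 1417359_at measured -0.83, -0.95, -2.40 and -2.53 in unstressed and 0.96, 0.56, -0.31 and -0.03 in stressed wounds of day 14. Arrays with high Xist were the lower ones in both groups, and the groups did not overlap. The difference was 1.98 (SE 0.38, adjusted p = 0.0072 in limma), and the second probe set, 1447833_x_at, differed by 0.89 (SE 0.14, adjusted p = 0.0029). The call on 1417359_at was not kept after quantile normalization (1.34, adjusted p = 0.056) or with only the 8 arrays of day 14 (adjusted p = 0.094). The suffix x marks probe sets in which some probes may match other transcripts.

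For Mfap5, probe set 1449082_at measured -1.20, -1.26, -1.77 and -1.30 in unstressed and -0.72, 1.01, 0.31 and 0.92 in stressed wounds of day 14. Stressed replicate 1 was the lowest of its group and still lay above the unstressed arrays. The difference was 1.76 (SE 0.31, adjusted p = 0.0043 in limma). On the other probe set, 1418454_at, that same array fell among the unstressed ones, at -1.14 against -2.95 to -1.09, and the difference was 1.95 (SE 0.44, adjusted p = 0.016). For this Mfap5 probe set the adjusted p was 0.13 with only the 8 arrays of day 14 and 0.098 with the Xist class as a block in those arrays. Without stressed replicate 2 it was 0.06.

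Among the fibulins, Fbln2 and Fbln5 were higher in stressed wounds of day 14. Fbln5, which binds tropoelastin and is required for elastic fibre assembly in mice, measured -0.38, -0.73, -2.21 and -1.01 in unstressed wounds on probe set 1416164_at. In stressed wounds it measured 1.80, 1.17, 0.32 and 0.35. The difference of this Fbln5 probe set was 1.99 (SE 0.40, adjusted p = 0.0089 in limma). The second probe set of Fbln5, 1446377_at, differed by 0.18 (95% interval -0.26 to 0.63), so the probe sets of Fbln5 disagreed in size. Fbln2, found in basement membranes and elastic fibres, measured -1.26, -1.55, -3.09 and -1.89 in unstressed and 0.60, 1.58, 0.27 and 0.04 in stressed wounds on probe set 1423407_a_at. All stressed arrays lay above all unstressed ones. The difference was 2.57 (SE 0.40, adjusted p = 0.0025 in limma), and that of the second Fbln2 probe set, 1438375_at, was 0.61 (SE 0.23, adjusted p = 0.12).

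Within the classes of arrays the difference of Fbln2 1423407_a_at was 2.50 with low and 2.64 with high Xist, and that of Fbln5 1416164_at was 2.04 and 1.94. On the second probe sets it was 0.52 and 0.70 for Fbln2 1438375_at and 0.44 and -0.07 for Fbln5 1446377_at. With only the 8 arrays of day 14 the adjusted p was 0.058 for Fbln2 and 0.092 for Fbln5. With the Xist class as a block in those arrays, an alternative chosen after seeing the data, it was 0.008 and 0.013. After quantile normalization neither passed, with 1.80 for Fbln2 (adjusted p = 0.054) and 1.53 for Fbln5 (adjusted p = 0.09).

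Fbln1 and Efemp1 did not pass at day 14. Fbln1 encodes fibulin 1, a protein of elastic fibres and basement membranes. Its 3 probe sets differed by -0.20 (1422540_at, 95% interval -0.94 to 0.53), 0.09 (1439688_at, 95% interval -0.21 to 0.39) and 0.60 (1451119_a_at, 95% interval -0.05 to 1.25). Efemp1, fibulin 3, measured 0.78, 0.13, -0.78 and 0.34 in unstressed and -2.25, -0.03, -0.87 and -0.05 in stressed wounds. These Efemp1 groups overlapped, with stressed replicate 1 the lowest array. The difference was -0.92 (95% interval -2.11 to 0.27, adjusted p = 0.35 in limma).

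Elastin itself, Eln, gave the smallest of the called differences apart from the second Mfap2 probe set. On probe set 1420854_at it measured -0.30, -0.60, -0.72 and -0.43 in unstressed wounds of day 14. The stressed wounds measured 0.37, 0.38, 0.92 and 1.64. All stressed arrays were above all unstressed arrays, and the arrays with high Xist were the higher of the stressed ones. The difference was 1.34 (SE 0.34, 95% interval 0.62 to 2.07, adjusted p = 0.029 in limma). In a fit blocked on replicate number the adjusted p was 0.06. The second Eln probe set, 1420855_at, differed by 1.31 (SE 0.51, adjusted p = 0.13), and its stressed arrays, at -0.17, -0.46, 1.11 and 2.17, overlapped the unstressed ones at -1.84 to -0.05. Within the classes this probe set differed by -0.27 with low Xist and by 2.89 with high Xist, so its value rested on replicates 3 and 4. The elastin call was also not kept without unstressed replicate 2 or 3 or stressed replicate 3 of day 14 (adjusted p = 0.061, 0.062 and 0.052). For Eln 1420854_at the adjusted p was 0.29 after quantile normalization, 0.24 and 0.07 with only the low-Xist or high-Xist arrays of day 14, and 0.077 with only the 8 arrays compared.

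**Figure D2:**
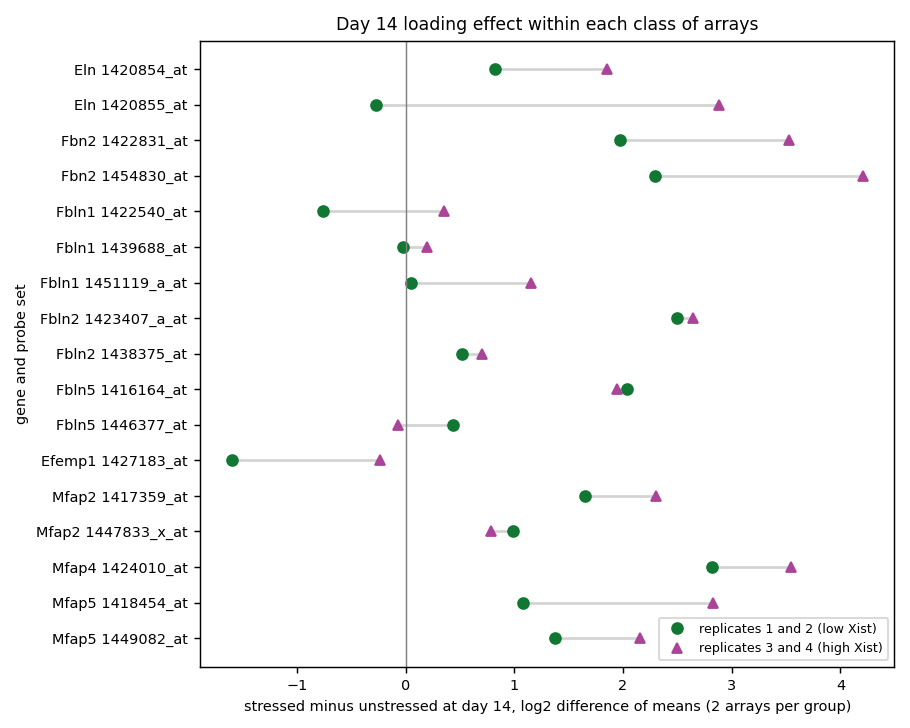
Stressed minus unstressed difference of mean log2 signal at day 14 (horizontal axis) for each of the 17 probe sets, with 2 arrays per group in each class. Mfap4, Fbn2, Fbln2, Mfap2 and Mfap5 are positive in both classes, and Eln 1420855_at is -0.27 in one and 2.89 in the other.

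The stressed arrays of day 14 did not order the genes alike. Replicates 1 and 2 held the highest values of Fbln5 1416164_at, Fbln2 1423407_a_at and Mfap2 1417359_at, while both probe sets of Eln were highest in replicates 3 and 4. The second probe sets of those genes did not keep that order, and Fbln5 1446377_at was highest in replicate 3 (1.02). Replicate 1 held the lowest Mfap5 (-0.72 on 1449082_at) and Efemp1 (-2.25) values of its group.

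After 48 hours of loading, at day 6, 0 of the 17 probe sets passed in limma, where 0.0258% of all probe sets did (0.0143% higher and 0.0114% lower). All 17 differences were nonetheless positive, with a median of 0.82 against 0.00 for all probe sets, and 6 had an unadjusted p under 0.05, as did 5.67% of all probe sets. In 5 probe sets, both of Mfap5 and 1 each of Fbn2, Mfap4 and Fbln1, every stressed array lay above every unstressed one, as in 3.11% of all probe sets, and 0 lay wholly below, against 3.05%. Mfap5 came nearest to the threshold. On 1449082_at it measured -0.16, -0.76, -1.19 and -0.80 in unstressed and 0.89, 0.94, 0.68 and 0.96 in stressed wounds, a difference of 1.60 (SE 0.31, 95% interval 0.95 to 2.25, adjusted p = 0.14). With only the 8 arrays of day 6 this Mfap5 probe set had an adjusted p of 0.042.

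For the other members at day 6, Fbn2 1422831_at measured -0.79, 0.27, 0.02 and 0.38 in unstressed and 1.15, 1.24, 1.11 and 1.10 in stressed wounds. Its difference was 1.18 (SE 0.39, adjusted p = 0.55 in limma). Mfap4 differed by 0.93 (95% interval 0.23 to 1.62), Fbln5 1416164_at by 0.99 (95% interval 0.14 to 1.83) and Mfap2 1417359_at by 0.35 (95% interval -0.45 to 1.16). The Eln probe sets differed by 0.59 and 0.79, with intervals of -0.13 to 1.32 and -0.29 to 1.87. Efemp1 differed by 1.19, and its unstressed arrays spread from -2.49 to 0.16.

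**Figure D3:**
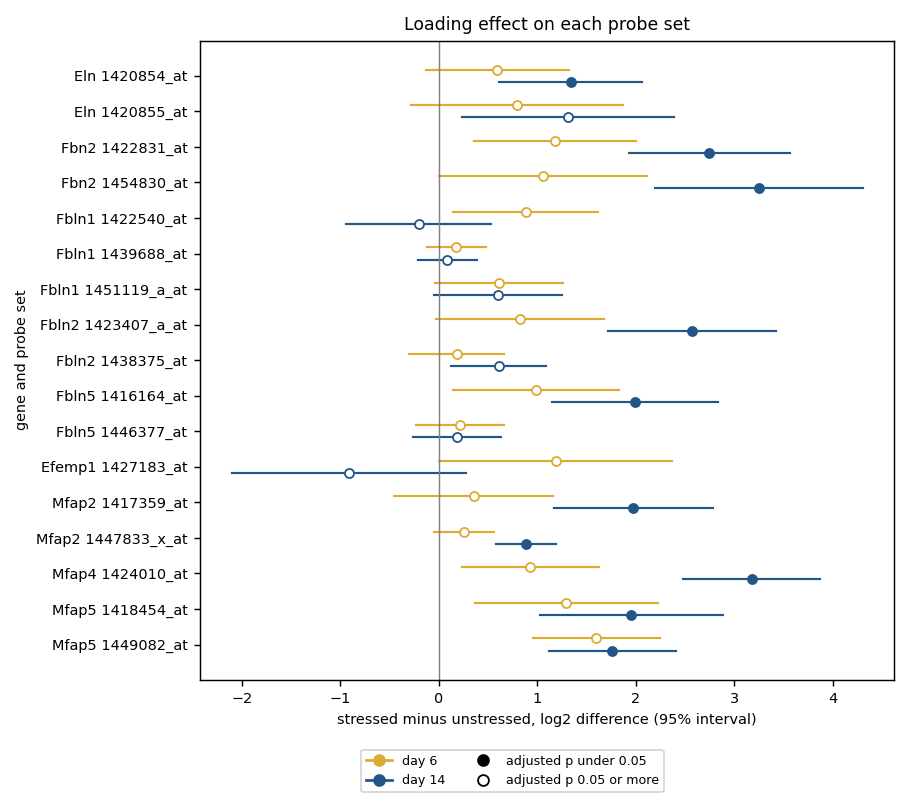
Stressed minus unstressed log2 difference with its 95% interval (horizontal axis) for each of the 17 probe sets, at day 6 and day 14. Filled points passed an adjusted p of 0.05 in limma, which 10 probe sets did at day 14 and 0 at day 6.

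Whether the loading effects of both days differed was tested with limma, which called 0 of the 17 probe sets and 0.00858% of all probe sets (0.00286% higher and 0.00572% lower). Mfap4 came nearest to the threshold (2.25 larger at day 14, 95% interval 1.27 to 3.23, adjusted p = 0.13 in limma). It was followed by Fbn2 1454830_at (2.19), Mfap2 1447833_x_at (0.63), Fbln2 1423407_a_at (1.75), Mfap2 1417359_at (1.62) and Fbn2 1422831_at (1.57), with adjusted p from 0.32 to 0.35. Efemp1 (-2.10, 95% interval -3.78 to -0.42) and Fbln1 1422540_at (-1.09) had the most negative values. Of the members, 8 had an unadjusted p under 0.05, as did 10.0% of all probe sets. Mfap4 passed without unstressed replicate 3 (adjusted p = 0.019) or stressed replicate 4 of day 14 (adjusted p = 0.043). After quantile normalization the value of Mfap4 was 0.98 (adjusted p = 0.63), and those of Fbn2 were 0.72 on 1454830_at and 0.18 on 1422831_at.

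The change from day 6 to day 14 was taken separately in unstressed and stressed wounds, in values that share arrays with the loading comparisons. In unstressed wounds 7 of the 17 probe sets, of 6 genes, fell and 1 rose, against 40.2% of all probe sets called, 23.4% lower and 16.8% higher. In log2 terms Mfap4 fell by 2.16 (SE 0.33, adjusted p = 0.00017 in limma), from -0.10 ± 0.38 to -2.25 ± 0.86 (SD, n = 4). Fbn2 fell by 2.38 and 2.24 on its probe sets, Mfap2 1417359_at by 1.69, Fbln2 1423407_a_at by 1.38 and Mfap5 1418454_at by 1.23. For Fbln2 1423407_a_at the arrays of both days overlapped. In 8 probe sets every array of day 14 lay below every array of day 6, both of Eln among them (-0.74 and -1.03, adjusted p = 0.098 and 0.12), and in 1 every one lay above. These shares were 21.8% and 16.5% over all probe sets. The falls of Fbln2 and of Mfap5 1418454_at did not pass with the Xist class as a block or with only the low-Xist arrays of day 14, where the Fbln2 difference was -0.84 and that of Mfap5 -0.69. After quantile normalization Fbln2 1423407_a_at differed by -0.34 (adjusted p = 0.55), Mfap5 1418454_at by -0.35 (adjusted p = 0.46) and Fbn2 1454830_at by -1.07 (adjusted p = 0.099). The Mfap5 fall also did not pass without any one of 5 arrays, and with the low-Xist arrays Fbn2 1454830_at differed by -1.24 (adjusted p = 0.054).

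In stressed wounds Mfap4, Fbn2 1454830_at, Mfap2 1417359_at and Eln 1420854_at differed by less than 0.1 between the days. After quantile normalization these values were -0.38, -0.35, -0.28 and -0.43. With the Xist class as a block they were 0.29, 0.48, 0.56 and -0.18, with an interval of 0.06 to 1.06 for Mfap2, and Fbln5 1416164_at passed (1.03, adjusted p = 0.018). Of the 17 probe sets, 2 rose and 2 fell, where 18.7% and 26.6% of all probe sets did, 45.3% in all. Other probe sets of Fbn2 and Eln were less alike between the days. Fbn2 1422831_at differed by -0.81 (adjusted p = 0.099 in limma) and Eln 1420855_at by -0.52 (adjusted p = 0.42). For that Fbn2 probe set every array of day 14 lay below every array of day 6, as in 23.4% of all probe sets. After quantile normalization they differed by -1.37 and -1.18 (adjusted p = 0.0073 and 0.042). Mfap5 1449082_at then passed too (-0.81, adjusted p = 0.038), and 2 member probe sets rose and 5 fell. Mfap4 was 0.83 ± 0.29 at day 6 and 0.93 ± 0.26 at day 14 (SD, n = 4), a difference of 0.09 (95% interval -0.60 to 0.79). The difference was -0.06 for Mfap2 1417359_at (95% interval -0.87 to 0.74), 0.01 for Eln 1420854_at (95% interval -0.71 to 0.74), and -0.05 and -0.81 for the probe sets of Fbn2. Mfap2 1447833_x_at rose by 0.69 (SE 0.14, adjusted p = 0.0015 in limma).

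Fbln1 changed with time in both kinds of wound, and its probe sets moved in opposite directions. On 1439688_at it rose by 1.22 in unstressed and 1.13 in stressed wounds (SE 0.14 for both, adjusted p = 2.3e-05 and 4.4e-05 in limma), with every array of day 14 above every array of day 6. On 1451119_a_at it fell by 0.87 and 0.88 (adjusted p = 0.033 and 0.028), and on 1422540_at by 1.19 in stressed wounds (adjusted p = 0.012, and 0.15 with only the high-Xist arrays of day 14). In each of these falls the arrays of both days overlapped. The falls on 1451119_a_at did not pass with the Xist class as a block, or without any one of 5 arrays in each comparison. Whether these Fbln1 probe sets read different transcripts cannot be told from the files.

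**Figure D4:**
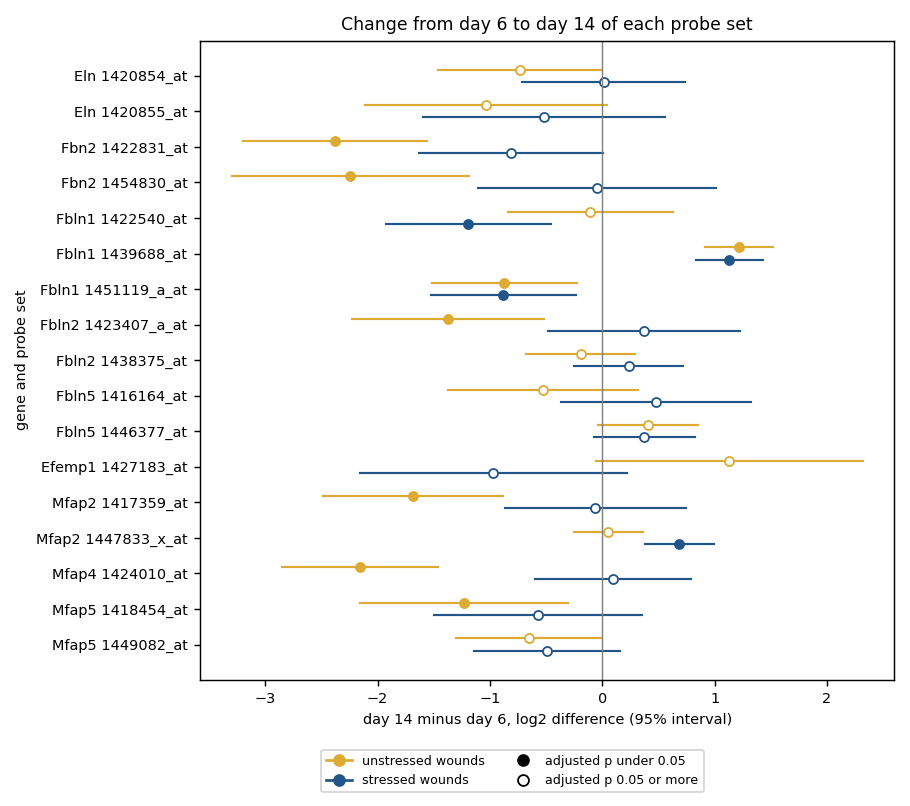
Day 14 minus day 6 log2 difference with its 95% interval (horizontal axis) for each of the 17 probe sets, in unstressed and in stressed wounds. Filled points passed an adjusted p of 0.05 in limma. Mfap4 is at -2.16 in unstressed and 0.09 in stressed wounds.

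Related members were compared directly by exact two-sided permutation of the arrays, on the difference between both genes within each array. None of the 6 tests passed after adjustment, and 4 arrays against 4 cannot give an exact p below 0.029. A lone test at that floor could not pass adjustment over 6. The lack of a pass therefore does not show that related members responded alike. Each gene was taken by its most variable probe set, which for Fbln1 was 1439688_at. Over the 16 arrays this probe set correlated negatively with the others of Fbln1 (Pearson r = -0.45 and -0.62). At day 14 the centred signal of Fbln1 on it minus that of Fbln2 was 2.98 ± 0.96 in unstressed and 0.49 ± 0.92 in stressed wounds (SD, n = 4). It was 2.49 lower in stressed wounds, without overlap (exact p = 0.029, adjusted p = 0.086). Only such a change can be read, as centred values do not rank the genes. Taken singly, Fbln1 1439688_at differed by 0.09 and Fbln2 1423407_a_at by 2.57. Mfap2 relative to Mfap5 was 1.25 lower in stressed wounds at day 6, also without overlap (exact p = 0.029, adjusted p = 0.086), and 0.21 higher at day 14 (exact p = 0.77). Eln relative to Fbn2 was 1.91 lower in stressed wounds at day 14 (exact p = 0.057, adjusted p = 0.11) and 0.46 lower at day 6 (exact p = 0.11). The remaining test, Fbln1 relative to Fbln2 at day 6, gave -0.65 (exact p = 0.11).

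Enzymes that crosslink elastin were higher with loading at day 14, when 3.83% of all genes, each by its most variable probe set, were called higher and 4.26% lower. Of 4 lysyl oxidase genes measured 3 were called higher and 0 lower, with a median of 1.71. Lox measured -3.29 to -1.99 in unstressed and 0.65 to 1.44 in stressed wounds, a difference of 3.47 (SE 0.43, adjusted p = 5e-04 in limma). Loxl1, the partner of fibulin 5 in elastin crosslinking, differed by 2.10 (SE 0.27, adjusted p = 0.00062) and Loxl3 by 1.32 (adjusted p = 0.04). Loxl4 differed by 0.91 (adjusted p = 0.057). At day 6 all 4 differences were positive and 0 passed.

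Other microfibril and elastic fibre proteins were mixed at day 14, with 5 of 17 genes called higher, 2 lower and a median of 0.26. Emilin1, a glycoprotein of the elastin and microfibril interface, measured -3.72 to -2.94 in unstressed and -1.21 to 0.19 in stressed wounds and differed by 2.68 (SE 0.29, adjusted p = 0.00015 in limma). The proteoglycan Vcan, which binds fibrillin and fibulins, differed by 2.15 (adjusted p = 0.0076), the proteoglycan Bgn by 1.75 (adjusted p = 0.00079) and the basement membrane protein Nid1 by 2.09 (adjusted p = 0.0097). The 4 latent TGF-beta binding proteins measured share the domain structure of fibrillins. Over their 9 probe sets 1 was called higher and 1 lower, and 7 differences were negative. By the most variable probe set of each gene, Ltbp2 alone passed (1.60, SE 0.36, adjusted p = 0.016 in limma). Ltbp1, Ltbp3 and Ltbp4 differed by -0.03, -0.03 and -0.46.

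Proteases that can degrade elastin were higher as well, in 4 of 10 genes with 0 lower and a median of 0.96. The macrophage elastase Mmp12 measured -3.96 to -3.61 in unstressed and -1.41 to 2.32 in stressed wounds of day 14, a difference of 3.79 (SE 0.66, adjusted p = 0.0044 in limma). Mmp14 differed by 2.88 (adjusted p = 0.0057), the cysteine protease Ctss by 2.36 (adjusted p = 0.00013) and Mmp2 by 1.32 (adjusted p = 0.01). Of 9 elastin and fibulin receptor genes, 3 passed: the integrin subunits Itgav (1.25, adjusted p = 0.015), Itgb1 (1.19, adjusted p = 0.042) and Itgb5 (0.92, adjusted p = 0.033). The integrin subunit Itga8 differed by -0.71 (adjusted p = 0.06). At day 6 no gene of these 5 lists passed.

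Markers of several cell types moved with loading at day 14, and their part in the differences of the elastic fibre genes was not tested. Fibroblast markers were higher in 11 of 12 genes with 3 called and a median of 0.74, and their mean signal lay at -2.01 to -0.81 in unstressed and -0.47 to 0.02 in stressed wounds. Macrophage markers were higher in 9 of 10 genes with 6 called and a median of 1.44, at means of -2.24 to -1.20 and -1.09 to -0.03. Skeletal muscle markers were lower in 12 of 12 genes with 8 called and a median of -2.87, at means of -1.43 to 0.80 and -4.23 to -0.38. Adipocyte markers were lower in 8 of 8 genes with 7 called and a median of -2.26, with a mean of at least 0.65 in every unstressed and at most 0.33 in every stressed array. Smooth muscle and pericyte markers, of cells that also make elastin in vessel walls, were higher in 3 of 10 genes with 2 called lower and a median of -0.49. Of 10 endothelial markers 9 were higher and 0 called, and cartilage markers in 7 of 10 with 2 called. Of 9 keratinocyte markers 5 were higher and 0 called, and of 8 hair follicle markers 0 were higher and 2 were called lower. These counts take the most variable probe set of each gene. With every probe set of a list, 2 of 14 endothelial and 9 of 20 fibroblast ones were called higher and 0 lower. Of 19 smooth muscle and pericyte probe sets 3 were called higher and 2 lower, with a median of -0.08. Of all probe sets 3.31% were called higher and 4.04% lower. Of all genes, each by its most variable probe set, 3.83% were called higher and 4.26% lower, and 51.2% had a higher value.

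The same marker lists also differed between days. From day 6 to day 14 in unstressed wounds, 21.9% of all genes were called higher and 30.5% lower, and 45.4% had a higher value. Hair follicle markers were higher in 8 of 8 genes with 7 called and a median of 5.88. Macrophage markers were lower in 10 of 10 genes with 7 called, and fibroblast markers in 11 of 12 with 5 called.

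Markers also differed, mostly without a call, beside the positive member differences of day 6, and their part in those was not tested. Of all genes at day 6, 0.0275% were called higher with loading and 0.022% lower, and 51.2% had a higher value. Fibroblast markers were higher with loading in 11 of 12 genes with 0 called and a median of 0.61, and their means lay at -0.22 to 0.08 in unstressed and 0.36 to 0.44 in stressed wounds. Macrophage and endothelial markers were each higher in 10 of 10 genes with 0 called, with medians of 0.37 and 0.16 and means that overlapped between the groups. Keratinocyte markers were lower in 9 of 9 genes with 0 called and a median of -0.24, at means of 0.07 to 0.41 in unstressed and -0.23 to 0.08 in stressed wounds. Of 10 cartilage markers 8 were higher and 1 was called higher.

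The genes whose pattern over the 16 arrays was most like that of Eln 1420854_at were Ogn (Pearson r = 0.91), Igfbp7 (0.91), Trpm3 (0.88), Nox4 (0.87) and Cpxm2 (0.87). These values are a description over arrays that share the group differences. Ogn encodes the small leucine-rich proteoglycan osteoglycin.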

How the data were processed

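Transcripts of 16 wound samples were measured on Affymetrix arrays with, per the series design text, 20 oligonucleotide pairs per gene. GeneSpring GX 11.0 was used by the authors, per that text, and the deposited values were read as log2 signals centred per probe set. Background correction, summarization, normalization and the log base are, in the sources used here, not given. The largest range of a probe set, 10.08, is above the 4.82 possible for log10 values of a 16-bit scanner. Natural logs remain possible, and true log2 differences would then be larger. The reference of the centring is unknown (6.27% of probe sets have a median within 0.001 of 0) and cancels in differences between arrays. No detection could be judged and no filter on low values was applied, so all 17 member probe sets were tested.

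Probe sets were named from the platform annotation. Of 45101, 34945 with 1 symbol were tested, and 932 with several symbols, 9160 with none and 64 controls were left out. Groups came from the sample titles. The limma package 3.58.1 (R 4.3.3, lmFit and eBayes, two-sided) was fitted to each probe set on the means of the 4 groups, which share 1 estimate of the spread, and p-values were adjusted with Benjamini-Hochberg over the 34945 probe sets, with a threshold of 0.05. A gene of a list was represented by the probe set with the largest interquartile range. Comparisons of related members used exact permutation of 4 against 4 arrays, adjusted over 6 tests, since the 2 planned pairs with Efemp2 could not be run. Precision is limited by the number of arrays. Arrays of day 14 varied more widely than those of day 6. A shared spread can then make intervals too narrow at day 14 and too wide at day 6. The members and lists were chosen with earlier results of these data known. The rule for named genes took every member probe set, up to 4 genes of each list by their p at day 14 and the 5 genes outside the members most like Eln. Permutations used scipy 1.17.1, figures matplotlib 3.10.9, and tables pandas 2.3.3 (Python 3.11.15, numpy 2.4.6), and the limma fit was tested on simulated data.

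Alternatives were quantile normalization, 1 probe set per gene, all probe sets, array weights, a robust variance prior, the Xist class as a block or within classes, the replicate number as a block, only the arrays compared, exact permutation and each array left out. No 2 replicates held the same values: their differences had an SD of at least 0.238. Same-numbered arrays of day 14 correlated in their deviations from the group means (0.25, 0.17, 0.26 and 0.14), all above 0.1. Such arrays were also of the same Xist class, so these correlations cannot tell pairing by number from a shared class. Unstressed replicate 2 of day 14 correlated best with stressed replicate 1. The number was used as a block in an alternative fit, for the comparisons of day 6 and over time as well. At day 6 the correlations of same-numbered arrays were -0.15, -0.42, -0.24 and 0.00.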

Additional observations from a re-analysis of the deposited data

Results flagged for a closer look

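In 3 of the 68 sets of 4 replicates, 1 array lay far from the other 3 by Dixon's criterion, which chance meets in about 1 of 20 sets. Mfap4 in unstressed replicate 3 of day 14 was at -3.53, against -2.02 to -1.73 in the other 3 arrays. Without that array the loading effect on Mfap4 at day 14 was 2.75. Fbln2 1423407_a_at in stressed replicate 2 of day 6 was at -0.31, against 0.40 to 0.48 in the others. Mfap2 1447833_x_at in stressed replicate 3 of day 6 was at 0.075, against 0.17 to 0.18.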

How the results depend on the processing

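Direction was kept in every alternative run for each of the 22 called differences of member probe sets, and 0 reversed. The number of member probe sets called for loading at day 14, 10 as reported, was 5 after quantile normalization (Mfap4, both of Fbn2, Mfap2 1447833_x_at and Mfap5 1449082_at), 1 with only the 8 arrays compared, 9 when the Xist class was added to that fit, 8 with low-Xist and 10 with high-Xist arrays of day 14, and 9 to 10 without any one array. The fit of those 8 arrays with the Xist class added was chosen after seeing the data. Quantile normalization gives every array the same spread, which differed between days as deposited. At day 6 the number, 0 as reported, was 5 after quantile normalization, 4 with array weights, 1 with high-Xist arrays of day 14 only and 1 with only the arrays compared, Mfap5 1449082_at being in each. For the difference between days it was 0 as reported, 2 with array weights, 1 with the Xist class as a block, 3 with low-Xist and 1 with high-Xist arrays only, and 0 to 1 without any one array. For time in unstressed wounds 8 became 4 after quantile normalization, 5 of 9 with 1 probe set per gene, 5 with the Xist class as a block and 4 with low-Xist arrays. For time in stressed wounds 4 became 7 after quantile normalization, 1 of 9 with 1 probe set per gene and 7 with array weights. The causes of these changes in number were not tested.

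Over all probe sets, loading at day 6 called 9 as reported, 433 after quantile normalization, 591 with array weights, 15 with the Xist class as a block, 16 and 18 with low-Xist and high-Xist arrays of day 14 only, 16 with only the arrays compared, 1 with the replicate block and 0 to 9 without any one array, and 1982 had an unadjusted p under 0.05. Loading at day 14 called 2567 as reported, 362 after quantile normalization, 1483 of 18193 with 1 probe set per gene, 5149 with array weights, 4085 with the Xist class as a block, 6548 and 800 with low-Xist and high-Xist arrays only, 122 with only the arrays compared, 1153 with the Xist class added there, and 948 to 4800 without any one array. The difference between days called 3, 7 with 1 probe set per gene, 1 over all probe sets with or without a symbol, 865 with array weights, 76 with the Xist class as a block, 2749 and 83 with low-Xist and high-Xist arrays only, 16 with the replicate block and 1 to 333 without any one array. With the replicate number as a block at day 14, 9 member probe sets passed, and Eln 1420854_at was the only member call it changed there. All 6 comparisons of related members failed adjustment under each alternative run. With an array of a day left out, the exact p of that day cannot fall below 0.057. The tests of that day could then not pass whatever the values. Signal over background could not be judged from centred values, so a small difference of a dim probe set, such as Fbln5 1446377_at, cannot be told from a lack of signal.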
